A study of Mus musculus with 7 samples.

Results

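Cytosolic ribosomal protein genes were followed in mouse embryos of embryonic day 9, taken whole, that were wild type, heterozygous or knockout for Adnp, the gene of a homeobox and zinc-finger protein needed for mid-gestation development. A gene was a member when its probe set carried that symbol alone and the symbol was Rpl or Rps with a number and at most 1 letter, or Rplp0, Rplp1, Rplp2 or Rpsa. Mitochondrial ribosomal proteins, the S6 kinases and symbols ending in -ps were left out. The rule found 45 genes with 96 probe sets, of 12393 genes and 22626 probe sets on the array. A single symbol is a matter of annotation and does not show that a probe set reads 1 gene only. The chosen probe sets of several members, such as Rps18, Rps29 and Rps28, have names ending in _x_at. Whether these also bind other messages was not tested. Of the 45 genes, 43 were bright enough to be tested among 8019 genes, 22 of the large subunit and 21 of the small subunit, and the other two, Rpl39l and Rpl3l, lay under the brightness filter. RefSeq's table for GRCm38.p6 held all 45 symbols and listed 44 as protein coding and 1, Rps4l, as a transcribed pseudogene.

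RNA was hybridised to 7 Affymetrix 430A arrays, each with RNA pooled from 2 littermates of 1 genotype. All embryos were C57BL/6 of mixed sex from heterozygous parents, dissected free of yolk sac and amnion. There were 2 wild-type arrays (ADNP+/+), 3 heterozygous arrays (ADNP+/-) and 2 knockout arrays (ADNP-/-), the null allele being typed by PCR for Adnp and a neomycin resistance gene. Knockout embryos at this age are, per the study's description, already abnormal in form and die in utero, so an array compares whole bodies of different make-up. Fewer cells of a type and less RNA per cell cannot be told apart in such pools.

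Cytosolic ribosomes are built from RNA and about one protein from each of these genes, and growing embryonic cells spend much of their messenger RNA on them. Most of these messages belong to the 5′TOP class: they begin with a C followed by a run of pyrimidines, which lets the mTOR pathway and the RNA-binding protein LARP1 control their translation together. Several single members have known developmental roles, and loss of one copy of some, such as Rps19, can leave ribosomal proteins free to bind Mdm2 and raise p53.

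RefSeq promoter windows (GRCm38.p6, 250 bases before to 50 after a start) were found for 39 of the 45 members, 47 windows in all. They are shown for 6 of the members that were higher in knockout than in heterozygous embryos and for Rpl22. The brightest Rpl22 probe set had the largest negative difference between knockout and wild type, short of the threshold, and its other probe set did not move with it. Each sequence gives 60 bases before the annotated start and 20 bases from it onward. Capitals mark a pyrimidine run of at least 8 bases that reaches within 15 bases of the start on either side. Such a run resembles a 5′TOP but need not begin at the annotated start or with a C, and that of Rpl4 begins at -18 relative to it. A line without capitals holds no such run in that range.
Rplp2 (chr7:141447591-141447670, + strand): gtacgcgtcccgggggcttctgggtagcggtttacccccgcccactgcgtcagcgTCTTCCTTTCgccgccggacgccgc
Rps18 (chr17:33955646-33955725, - strand): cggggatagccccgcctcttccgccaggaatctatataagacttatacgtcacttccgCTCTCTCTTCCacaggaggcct
Rpl4 (chr9:64173327-64173406, + strand): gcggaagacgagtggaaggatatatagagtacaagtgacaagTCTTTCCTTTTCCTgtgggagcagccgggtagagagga
Rps26 (chr10:128626487-128626566, - strand): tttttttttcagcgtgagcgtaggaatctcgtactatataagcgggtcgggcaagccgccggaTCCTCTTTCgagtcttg
Rpl6 (chr5:121204441-121204520, + strand): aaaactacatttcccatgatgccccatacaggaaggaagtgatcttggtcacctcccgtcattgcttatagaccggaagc
Rps7 (chr12:28635934-28636013, - strand): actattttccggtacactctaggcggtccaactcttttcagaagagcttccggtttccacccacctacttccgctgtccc
Rpl22 (chr4:152325666-152325745, + strand): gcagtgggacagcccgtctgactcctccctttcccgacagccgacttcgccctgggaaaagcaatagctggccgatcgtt

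Such a run was present in 20 of the members' 47 windows (42.6%), against 17.6% of all 32851 windows of the table. An annotated start that is a C followed by at least 4 pyrimidines was found in 8 windows of members, 17% against 2.51%. The letters CCGGAAG, the core that ETS-family factors bind, were found on either strand in 20 windows of members (42.6%, against 8.86% of all). AAGATGGCG, the core bound by YY1, stood on either strand in 2 windows of members (4.26%, against 1.4%), and TATAAA on either strand in 5 (10.6%, against 13.6%). CCGGAAG and AAGATGGCG can share the letters AAG, and several windows of 1 gene can overlap. These are descriptions of letters near annotated starts, not of bound sites, and a start annotated a few bases away from the true one moves the run.

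The family lies at the bright end of the array. Among the 43 tested members 34 had a mean signal over 1000, with a median of 4203, and the brightest, Rpl41, read 7083 and 6940 in wild type, 5515, 6537 and 6554 in heterozygotes, and 7852 and 7679 in the knockout. The 5 brightest members were Rpl41, Rps2, Rps29, Rpl4 and Rpl7a. Signals of different probe sets depend on their probes as well as on the message, so this order is one of brightness and not of mRNA amount. The dimmest tested members, Rps27, Rps25, Rps6, Rpl39 and Rpl27a, had mean signals of 63.6 to 139, while the probe sets that these genes share with pseudogenes, given further on, were bright.

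Of the arrays, heterozygous replicate 1 stood apart at the top of the range. The signal exceeded by 1 in 1000 of its probe sets was 4372, against 5045 to 6321 on the other 6 arrays. The 3′ control probe sets of beta-actin and Gapdh read 3952 and 3548 there, against 5187 to 6720 and 4351 to 5340 elsewhere. That of 18S rRNA read 1100, against 57.2 to 137. The 5′ and middle 18S rRNA probe sets were less far apart, at 318 and 132 there against 19.1 to 166 and 19.8 to 86.8 elsewhere. Both knockout arrays had the highest signals exceeded by 1 in 1000 probe sets, 6321 and 6251, and the highest actin and Gapdh readings, while the trimmed mean was 150 on every array. The ratio of the 3′ to the 5′ actin probe sets ran from 0.986 to 1.19, lowest on heterozygous replicate 1 and highest on the knockout arrays (1.16 and 1.19). The Gapdh ratio did not have this order. It ran from 0.801 on heterozygous replicate 3 to 0.881 on heterozygous replicate 2, with 0.812 on heterozygous replicate 1 and 0.876 and 0.835 in the knockout. The targeted gene could not be read, because its single probe set is also annotated to the neighbouring gene Dpm1.

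**Figure D1:**
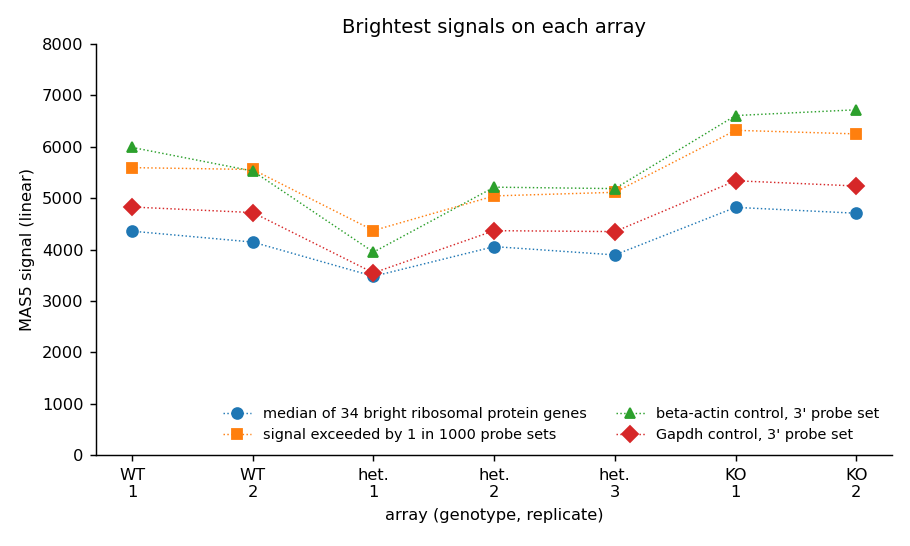
MAS5 signal (linear axis) on each of the 7 arrays for the median of the 34 bright ribosomal protein genes, the signal exceeded by 1 in 1000 probe sets, and the 3′ control probe sets of beta-actin and Gapdh. All 4 series are lowest on heterozygous replicate 1, where the ribosomal median is 3481, and higher on both knockout arrays (4822 and 4708) than on any other array.

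Summed over members, ribosomal protein signal was 3.15% and 3.10% of all signal in wild type, 2.68%, 3.04% and 2.87% in heterozygotes, and 3.36% and 3.34% in the knockout. The 3 genotypes did not overlap on this measure, with heterozygotes lowest and the knockout highest. Relative to each gene's own mean over the arrays, the median member stood at 0.05 and 0.02 (log2) in wild type, at -0.26, -0.04 and -0.08 in heterozygotes and at 0.19 and 0.18 in the knockout. Of the 34 bright members, 27 were lowest on heterozygous replicate 1, and 28 were highest on a knockout array, 16 on replicate 1 and 12 on replicate 2. The shares of all genes, or of equally bright ones, with these lowest and highest arrays were not counted. This order follows that of the array's brightest probe sets given above, actin and Gapdh included, and its source was not tested. When all arrays were given the same distribution by quantile normalization, the array medians of the family lay between -0.02 and 0.04.

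**Figure D2:**
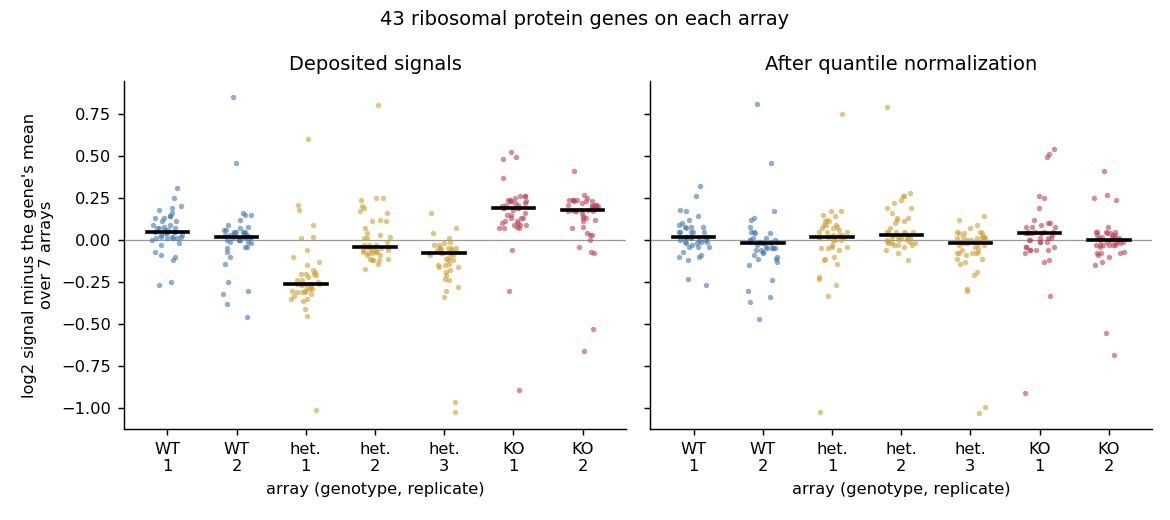
Each point is 1 of the 43 tested ribosomal protein genes on 1 array, as its log2 signal minus that gene's mean over the 7 arrays, and each bar is the median over genes, for the deposited signals (left) and after quantile normalization (right). On the left the medians run from -0.26 on heterozygous replicate 1 to 0.19 on knockout replicate 1, and on the right they lie between -0.02 and 0.04.

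The first comparison asked which members differ between knockout and wild-type embryos. A single member rose and none fell at an adjusted p under 0.05 (limma, Benjamini-Hochberg over all 8019 genes), 1 of 43 or 2.33%, against 3.30% of all genes called and 1.96% called as higher. The median member was 0.15 higher in the knockout on the log2 scale (quartiles 0.08 and 0.20), against -0.01 for all genes, and 38 of 43 members were above 0, as were 47.8% of all genes. On 26 members both knockout arrays lay above both wild-type arrays, and on 3 both lay below, where 24.7% and 28.2% of all genes did. Large-subunit genes had a median of 0.15 and small-subunit genes one of 0.14. For a typical member the 95% interval reached 0.24 to either side, so differences of the family's size could not be told from 0 gene by gene. Simulated data with these arrays' spread covered all 8019 genes, not the members alone. In them a true difference of 0.5 was called in 7 of 50 genes and one of 1 in 44 of 50. The rate for members, most of them bright, was not tested, nor was a difference of 0.15. The median of 0.15 was 0.01 after quantile normalization and 0.08 after cyclic loess.

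The member that rose was Rps4l, the transcribed pseudogene, a copy related to the small-subunit gene Rps4x. It read 421 and 420 in wild type, 432, 463 and 474 in heterozygotes, and 704 and 667 in the knockout. Both knockout values lay above all 5 others. The difference from wild type was 0.70 (SE 0.11, adjusted p = 0.00916, 1.63-fold in linear signal) and that from heterozygotes 0.58 (SE 0.10, adjusted p = 0.0101), while heterozygotes and wild type differed by 0.12 (SE 0.10, adjusted p = 0.999). After quantile normalization the values against wild type and heterozygotes were 0.69 (adjusted p = 0.0107) and 0.59 (adjusted p = 0.00999). The call against wild type was lost without wild-type replicate 2 (adjusted p = 0.0829), without knockout replicate 1 (0.0927) and without knockout replicate 2 (0.0687), at differences of 0.66 to 0.74 over all arrays left out. Rps4x itself, on the X chromosome in mouse, read 4843 and 4673 in wild type and 4827 and 5224 in the knockout, a difference of 0.08 (SE 0.09, adjusted p = 0.706). How far the Rps4l probe set also binds Rps4x message or that of other copies is not known from these values.

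After Rps4l the largest positive differences from wild type were those of Rpl37a (0.29, adjusted p = 0.187), Rpl14 (0.28, adjusted p = 0.388), Rpl37 (0.27, adjusted p = 0.508) and Rps19 (0.24, adjusted p = 0.486), all short of the threshold. Rpl37a, a zinc-finger protein of the large subunit, read 3799 and 4092 in wild type, 3652, 3906 and 3421 in heterozygotes, and 5236 and 4422 in the knockout. Its knockout arrays lay above all others but far apart from each other. Rps19, the gene most often mutated in Diamond-Blackfan anaemia, read 2904 and 2116 in wild type, 2418, 3126 and 2259 in heterozygotes, and 3013 and 2865 in the knockout. Its groups overlapped. The differences of Rpl37 and Rps19 rested on the wild-type arrays, at -0.01 and 0.02 without wild-type replicate 2 and 0.55 and 0.47 without replicate 1.

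The largest negative difference was that of Rpl22, a large-subunit protein that also binds RNA outside the ribosome and is not essential for life in mice. It read 1571 and 2493 in wild type, 2089, 2398 and 675 in heterozygotes, and 741 and 954 in the knockout. Both knockout values lay below both wild-type values, but heterozygous replicate 3 was lower than either. The difference from wild type was -1.23 (SE 0.48, adjusted p = 0.206), and its 95% interval ran from -2.31 to -0.15. It was called without heterozygous replicate 3 (adjusted p = 0.0256) and in a fit of the 2 genotypes alone (adjusted p = 0.0265). The other Rpl22 probe set did not move with it, at 0.13 above wild type (SE 0.11, adjusted p = 0.572 in a fit of every probe set). Rpl22l1, the paralog that can replace Rpl22 in the ribosome, read 1598 and 1280 in wild type, 1305, 1730 and 1441 in heterozygotes, and 1824 and 1521 in the knockout, with overlapping groups and a difference from wild type of 0.22 (SE 0.16, adjusted p = 0.493).

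Rps27l, a paralog of Rps27 whose gene is a p53 target, followed at -0.28 (SE 0.12, adjusted p = 0.241). It read 1609 and 1453 in wild type, 1415, 1467 and 1346 in heterozygotes, and 1133 and 1400 in the knockout. Both knockout values lay below the wild-type values, and its 3 probe sets gave differences of -0.28 to -0.25. The difference was -0.13 without knockout replicate 1 and -0.43 without knockout replicate 2. The remaining negative differences, those of Rps27 (-0.11, adjusted p = 0.901), Rps15 (-0.10, adjusted p = 0.682) and Rps25 (-0.04, adjusted p = 0.940), had intervals that include 0, and that of Rps27 was -0.68 without knockout replicate 1 and 0.46 without knockout replicate 2.

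**Figure D3:**
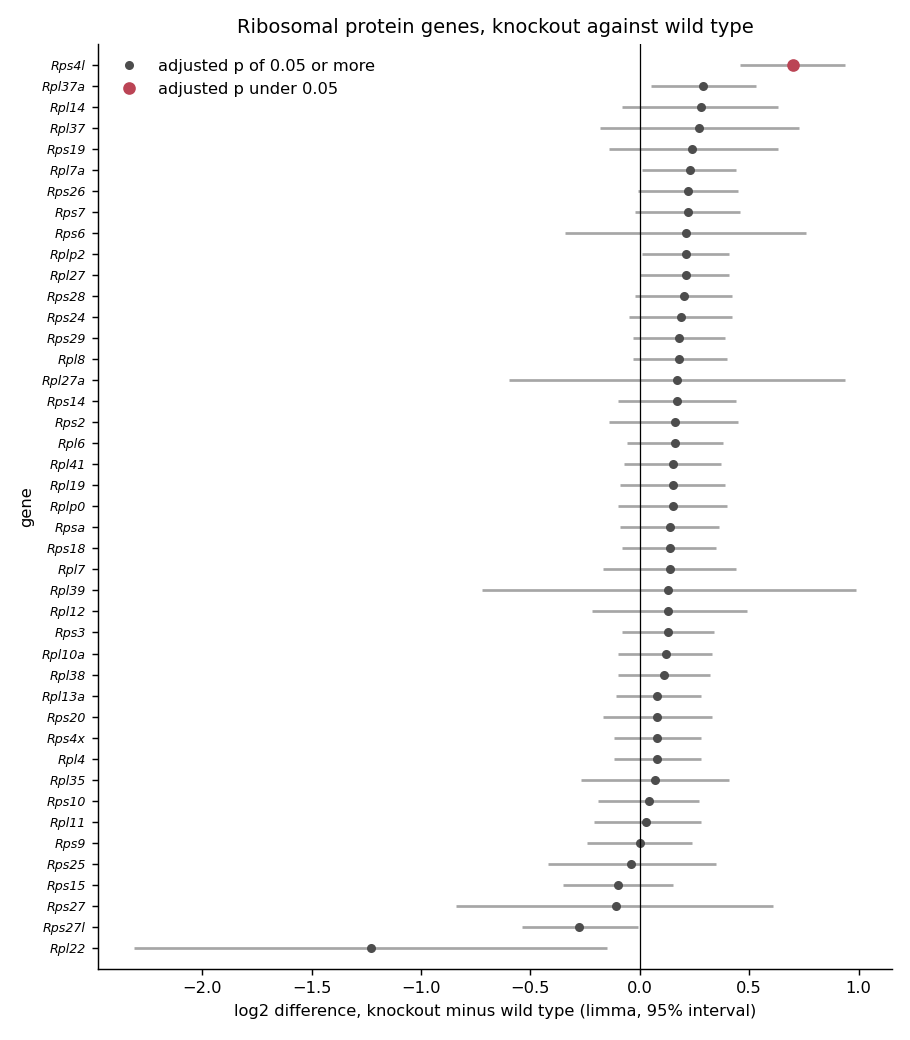
Log2 difference between knockout and wild type for the 43 tested ribosomal protein genes, with 95% limma intervals, ordered by size. Rps4l at 0.70 is the only gene with an adjusted p under 0.05, 38 genes lie above 0, and the intervals of 36 include 0.

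Like Rpl22, Rps27l and Rps19, the other members named for known roles of their own did not pass the threshold against wild type. Rpl11, which binds Mdm2 when ribosome assembly is disturbed, differed from wild type by 0.03 (SE 0.11, adjusted p = 0.910). Rpl38, needed for translation of Hox messages and for normal vertebrae, read 4983 and 4907 in wild type and 5385 and 5311 in the knockout, a difference of 0.11 (SE 0.09, adjusted p = 0.569). Rps20, which like Rps19 is mutated in a dark-skin mouse strain, stood at 0.08 (SE 0.11, adjusted p = 0.743), and Rps7 at 0.22 (SE 0.11, adjusted p = 0.306). Rpsa, which is also the laminin-binding protein needed for the spleen, stood at 0.14 (SE 0.10, adjusted p = 0.512), and Rplp0, the base of the ribosomal stalk, at 0.15 (SE 0.11, adjusted p = 0.514). Rps6, the S6 kinase substrate, was read by a dim probe set (155 and 89.1 in wild type, 147 and 127 in the knockout; 0.21, SE 0.25, adjusted p = 0.710).

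Rpl39l, a paralog of Rpl39 used mainly in the testis, was too dim to be tested. It read 3.4 and 10.9 in wild type, 8.2, 16.9 and 5.0 in heterozygotes, and 52.2 and 47.4 in the knockout. Both knockout values lay above all others, which are close to the pseudocount of 3.8. Against signals this near the floor a fold has no meaning, and without the brightness filter neither knockout comparison passed the threshold (adjusted p = 0.059 against wild type and 0.0558 against heterozygotes, limma). Rpl3l, the form of Rpl3 found in muscle, read 2.5 to 5.4 on all 7 arrays.

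**Figure D4:**
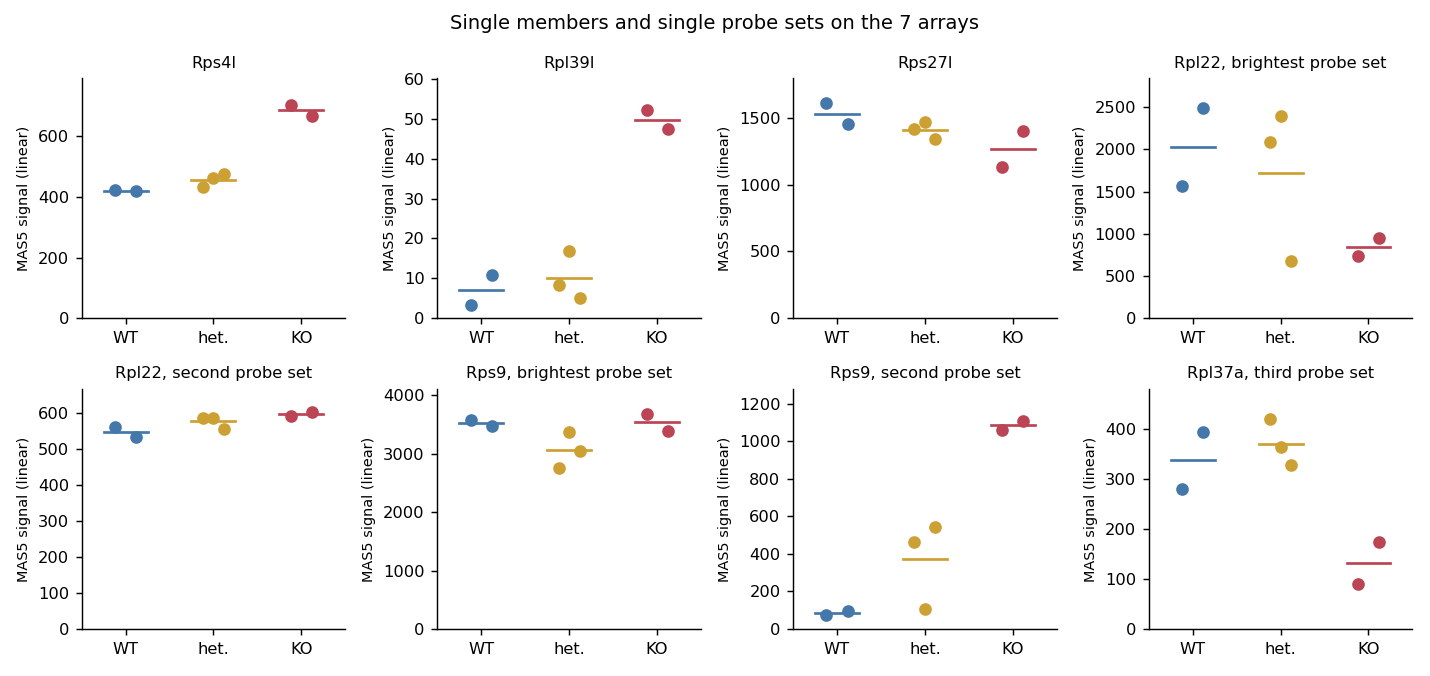
MAS5 signal (linear axes from 0) in wild-type, heterozygous and knockout arrays for single members and single probe sets, with a point for each array and a line at each group's mean. Rps4l and Rpl39l are higher on both knockout arrays than on the other 5, the brightest and second Rpl22 probe sets differ in direction, and the second Rps9 probe set and the third Rpl37a probe set do not follow the brightest ones.

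Heterozygous and wild-type embryos were compared next. No member was called (limma, adjusted p of 0.999 for each), and 0% of all genes were. At an unadjusted p under 0.05 there were 6 of 43 members and 282 of 8019 genes, 3.52%. The median member was 0.17 lower in heterozygotes (-0.17, quartiles -0.21 and -0.10, all genes 0.01), 36 of 43 were below 0 where 51.6% of all genes were above it, and on 23 all heterozygous arrays lay below both wild-type arrays, where 8.26% of all genes did. Without heterozygous replicate 1 the median was -0.10, and after quantile normalization and cyclic loess it was 0.01 and -0.05.

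Among members, the lowest differences of heterozygotes from wild type were those of Rpl22 (-0.40), Rpl4 and Rpl39 (-0.31 each), Rpl27a (-0.29) and Rpl6 (-0.27). Those of Rpl22, Rpl39 and Rpl27a changed sign with 1 array left out: Rpl22 was at 0.18 without heterozygous replicate 3, Rpl39 at 0.06 without that array or without wild-type replicate 2, and Rpl27a at 0.10 without heterozygous replicate 1. Rpl4, a large-subunit protein that lines the peptide exit tunnel, read 5736 and 5524 in wild type and 4229, 4729 and 4716 in heterozygotes. All 3 heterozygous values lay below both wild-type values, with replicate 1 the lowest (SE 0.08). The highest differences were those of Rpl12 (0.24), Rps4l (0.12), Rpl14 (0.10), Rpl37 (0.05) and Rps19 (0.05), 4 of them read by probe sets with a mean signal under 1000.

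In the third comparison knockout embryos were set against heterozygotes, and it held the most calls: 11 of 43 members rose and none fell, 25.6%, against 5.85% of all genes called and 3.12% called as higher. The median difference was 0.29 (quartiles 0.22 and 0.38, all genes -0.02), and 38 of 43 members lay above 0, as did 47.0% of all genes. Both knockout arrays lay above all 3 heterozygous arrays on 32 members, where 18.4% of all genes did, and on none did they lie below. The calls were 5 of 22 large-subunit genes and 6 of 21 small-subunit genes. Both knockout comparisons use the same knockout arrays, so they are not separate evidence.

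Besides Rps4l the called members were Rps7, Rpl6, Rps26, Rpl37a, Rpl4, Rps18, Rpl8, Rps29, Rplp2 and Rps28, with differences from 0.35 to 0.43 and adjusted p from 0.0243 to 0.0494 (limma). Rpl6 had the largest of these together with Rps7, at 0.43 (SE 0.09, adjusted p = 0.0243). Its signals were 4781 and 4352 in wild type, 3452, 4015 and 3880 in heterozygotes, and 5074 and 5092 in the knockout. The 3 groups were ordered heterozygous, wild type, knockout with no overlap, as in the summed signal of the family. Rpl4 had knockout signals of 6029 and 5870 beside the values above, for a difference of 0.39 (SE 0.08, adjusted p = 0.0247). Its knockout and wild-type values were much closer to each other than to the heterozygous ones.

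Rps26, which lies at the mRNA exit of the small subunit, read 4090 and 4152 in wild type, 3182, 3833 and 3754 in heterozygotes, and 4816 and 4783 in the knockout, a rise of 0.42 over heterozygotes (SE 0.09, adjusted p = 0.0309). Rps18, of the small subunit's head, read 4966 and 4912, then 3788, 4482 and 4248, then 5467 and 5409 in the same order of genotypes (0.39, SE 0.09, adjusted p = 0.0344). Rplp2, an acidic stalk protein that recruits elongation factors, read 5248 and 4977, then 4338, 4711 and 4907, then 5820 and 6026 (0.35, SE 0.08, adjusted p = 0.0379). In each of the 3 genes heterozygous replicate 1 was the lowest array and both knockout arrays were the highest. Rps7 at 0.43 (SE 0.10), Rps29 at 0.38 (SE 0.09) and Rpl8 at 0.38 (SE 0.09) had the same lowest array and the same highest pair. Among the called members whose windows are printed above, Rplp2, Rps18, Rpl4 and Rps26 have the pyrimidine run near the start and Rpl6 and Rps7 do not. Rpl37a and Rps28 were called too, and their windows, not printed, hold no such run. Rpl8, Rps29 and Rps4l had no window.

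These calls moved with the processing. After quantile normalization 1 of the 43 members was called, Rps4l, and the family's median was -0.01 instead of 0.29. After cyclic loess 1 was called and the median was 0.12. The count was 0 without knockout replicate 1 or without knockout replicate 2, 3 without wild-type replicate 1 or 2, 6 without heterozygous replicate 3, and 12 without heterozygous replicate 1, where the median was 0.23 and 10 of the 11 genes kept their call. It was 1 with no brightness filter, 1 without the intensity trend in the variance and 3 in a fit of the 2 genotypes alone. In the last 3 of these settings the median was 0.29, as before.

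**Figure D5:**
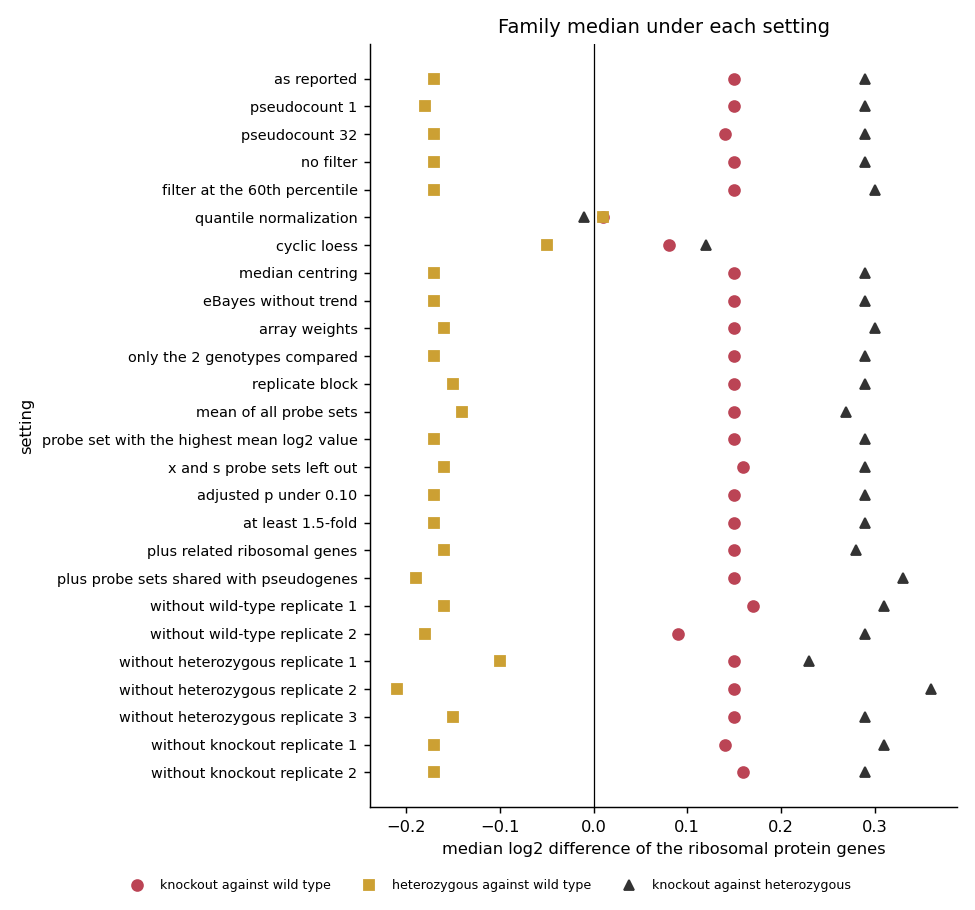
Median log2 difference of the ribosomal protein genes in each of the 3 comparisons (points, squares and triangles) under every setting tried, one setting to a row. The knockout medians stay at 0.09 or above against wild type and 0.23 or above against heterozygotes except under quantile normalization, where all 3 medians lie between -0.01 and 0.01 and 2 of them coincide, and under cyclic loess, where they are 0.08 and 0.12.

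Members that fell short in this comparison included the largest negative differences, Rpl22 (-0.83, adjusted p = 0.300), Rps27l (-0.16, adjusted p = 0.426), Rps27 (-0.13, adjusted p = 0.837), Rpl12 (-0.10, adjusted p = 0.730) and Rps15 (-0.05, adjusted p = 0.796). Rpl22 was called without heterozygous replicate 3 (-1.41, adjusted p = 0.0157) and stood at -0.50 without heterozygous replicate 2. Rps27l ran from -0.31 without knockout replicate 2 to -0.01 without knockout replicate 1, and Rps27 from 0.44 to -0.70 without the same arrays. Rps15, of the small subunit's head, read 2932 and 2601 in wild type, 2556, 2991 and 2501 in heterozygotes, and 2553 and 2597 in the knockout. Its knockout values lay just below both wild-type values, and the difference from wild type had an interval of -0.35 to 0.15.

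Of 18 members with more than 1 probe set past the filter, 7 had probe sets with opposite signs between knockout and wild type. In Rps9, Rpl37a and Rpl22 these lay more than 0.5 apart, and in Rps10, Rpl35, Rpl7 and Rps15 at most 0.47. When every probe set was tested as a feature of its own, 3 of the members' 85 probe sets were called against wild type, with 2.15% of all 12528 probe sets called, and 6 were against heterozygotes, with 3.71% of all called. Those against wild type were that of Rps4l (adjusted p = 0.0162), the second of Rps9 and the third of Rpl37a. Of the 6 against heterozygotes 5 were higher and 1 was lower, the third of Rpl37a (-1.54, SE 0.26, adjusted p = 0.0152). The brightest Rpl37a probe set, called as higher than in heterozygotes in the fit of genes, was not called in this one (0.40, adjusted p = 0.0655).

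The second Rps9 probe set read 76.0 and 95.8 in wild type, 466, 104 and 541 in heterozygotes, and 1061 and 1111 in the knockout. The knockout values lay above all others and the heterozygous ones were spread between (3.61, SE 0.61, adjusted p = 0.0212). The brightest Rps9 probe set read 3576 and 3482, then 2758, 3372 and 3053, then 3687 and 3386, with no difference between knockout and wild type (0.00, SE 0.11). The third Rpl37a probe set went the other way from its brightest, at 281 and 394 in wild type, 420, 364 and 328 in heterozygotes, and 89 and 174 in the knockout (-1.39, SE 0.28, adjusted p = 0.0404). Which transcript each of these probe sets reads was not tested, and neither value is a level of the gene.

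Another 25 ribosomal protein genes could not be members, because all their probe sets also carry the symbols of pseudogenes or predicted genes, so that their reads cannot be split. For 13 members a shared probe set exists beside their own. Fitted differences of the brightest shared probe set were ordered heterozygous, wild type, knockout in 36 of these 38 genes, the exceptions being those of Rpl11 and Rps19, which are dim. This is also the order of the arrays' brightest probe sets, actin and Gapdh included, some of which are ribosomal protein probe sets themselves. The share of all genes with this order was not counted, and its source was not tested. The shared probe set of Rpl5, which acts with Rpl11 on Mdm2, read 5865 and 5568 in wild type, 4207, 5333 and 5399 in heterozygotes, and 6194 and 6460 in the knockout. That of Rpl24, mutated in the Belly spot and tail mouse, differed from wild type by 0.11, that of Rpl29 by 0.15 and that of Rpl23 by 0.21.

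Counting these genes as members, an alternative added after seeing the data, gave 2 of 68 genes called against wild type, where 3.34% of all genes were called in that fit, and 28 of 68 against heterozygotes, where 6.12% were. The medians were 0.15 and 0.33. The second gene called against wild type was Rps15a. It read 2284 and 2545 in wild type, 2228, 2433 and 1879 in heterozygotes, and 3655 and 3548 in the knockout, where both values lay above all others, for a difference of 0.58. Shared probe sets also replaced dim ones: Rps6 read 6186 on average instead of 126, Rpl12 4687 instead of 209, and Rpl27a 4113 instead of 139. Their differences from wild type were 0.16, 0.18 and 0.20.

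Genes around the ribosome were counted in the same fit, from lists chosen with results of these arrays known. Of all genes 3.30% were called against wild type (1.96% as higher) and 5.85% against heterozygotes (3.12% as higher). As lower, 108 of the 8019 genes were called against wild type and 219 against heterozygotes. Against wild type, none of 17 other 5′TOP messages passed the threshold, and their median was 0.11. The smallest p-values were those of Eif3h (0.34, adjusted p = 0.112) and Eif4b (0.29, adjusted p = 0.187). Against heterozygotes 3 of the 17 rose, the nucleolar chaperone Npm1 (0.43, adjusted p = 0.0304), the elongation factor Eef1a1 (0.37, adjusted p = 0.0316) and the poly(A)-binding protein Pabpc1 (0.35, adjusted p = 0.0416), and the median was 0.26. Eef1a1 read 7191 and 7037 in wild type, 5563, 6241 and 6347 in heterozygotes, and 7857 and 7713 in the knockout. Like the bright ribosomal protein genes it was lowest on heterozygous replicate 1 and highest in the knockout.

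Of 5 related genes outside the rule none passed in either knockout comparison. Fau, whose product is cut to give the small-subunit protein S30, read 3106 and 3002 in wild type, 2896, 3181 and 2788 in heterozygotes, and 3418 and 3497 in the knockout (0.18 against wild type, adjusted p = 0.337). Rsl1d1, a nucleolar protein, differed by 0.25 (adjusted p = 0.320).

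Mitochondrial ribosomal proteins, which belong to a separate ribosome, had a median on the other side of 0. None of 74 passed against wild type, their median was -0.10, and 26 of 74 lay above 0, where 47.8% of all genes did. Mrpl23 (0.39, adjusted p = 0.0734) and Mrps11 (-0.46, adjusted p = 0.106) had the smallest p-values. Against heterozygotes 2 of 74 fell, Mrps18a (-0.83, adjusted p = 0.0142) and Mrps7 (-0.49, adjusted p = 0.0381), none rose, and the median was -0.07. Of all 8019 genes 219 were called as lower there, a similar share.

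Of 81 ribosome biogenesis factors none passed against wild type (median 0.09). Nop56, of the box C/D particles that modify rRNA, had the smallest p (0.37, adjusted p = 0.112), followed by Utp6 (-0.41, adjusted p = 0.134). Utp6, of the small-subunit processome, fell against heterozygotes (-0.48, adjusted p = 0.0495). None of 13 genes of RNA polymerase I and its factors passed in either knockout comparison. Taf1b (-0.61, adjusted p = 0.118) and Polr1d (0.47, adjusted p = 0.121) came closest against wild type, and the list's median was 0.04.

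Among 29 initiation and elongation factors 1 fell and none rose against wild type. This was Eif5, the GTPase-activating protein of start-codon selection, at 1869 and 1819 in wild type, 1627, 1429 and 1900 in heterozygotes, and 1130 and 1245 in the knockout. Both knockout values lay below all others (-0.63, SE 0.13, adjusted p = 0.0286), and against heterozygotes the difference was -0.47 (adjusted p = 0.0493). Among 17 regulators of ribosome supply 1 rose against wild type, Ddit4, a stress-induced inhibitor of mTOR complex 1. It read 228 and 216 in wild type, 216, 207 and 274 in heterozygotes, and 627 and 763 in the knockout, so the knockout stood clear of all other arrays (1.62, SE 0.16, adjusted p = 0.000833). Against heterozygotes Ddit4 rose too (1.57, adjusted p = 0.000533), and Rps6ka3, a kinase that phosphorylates ribosomal protein S6, fell (-0.50, adjusted p = 0.0306).

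Of 17 p53 genes tested none passed in either knockout comparison, with medians of -0.07 and -0.08. Trp53inp1 (0.64, adjusted p = 0.190) and Btg2 (-0.54, adjusted p = 0.210) had the smallest p-values against wild type. Rps27l, which is in both lists, is the member described above.

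Markers of other cells moved with genotype too. Of 15 visceral endoderm markers 10 rose against wild type and 14 against heterozygotes, none fell, and their summed signal was 11740 and 13754 in the knockout against 1122 to 3481 on the other arrays. Apoa1 read 143 and 14.2 in wild type, 11.8, 73.8 and 65.3 in heterozygotes, and 1396 and 1706 in the knockout (4.91, adjusted p = 0.0190). The labelled tissue is the embryonic body, of whose 15 tested markers 6 fell against wild type and 6 against heterozygotes and none rose, with sums of 5716 and 4821 in the knockout against 6032 to 7120. Trophoblast markers summed to 827 and 940 in the knockout and 304 to 478 elsewhere, with none of 4 passing against wild type, 1 rising against heterozygotes (Phlda2, 3.28, adjusted p = 0.0211), and the defining cathepsins Cts7, Cts8, Ctsq and Ctsr under 20 on every array. Decidual markers summed to 1367 on heterozygous replicate 1 and 452 to 809 elsewhere (none of 6 passing in either knockout comparison, Pgr and Igfbp1 under 20). Most of that sum was Prl8a2, a decidual prolactin, at 829 there and 16.2 to 138 elsewhere, and without it the sum was 539 there and 436 to 670 elsewhere. Primitive erythroid markers summed to 9917 to 17212 with no order by genotype (none of 10 passing in either knockout comparison). The part of any of these cells in the ribosomal values was not tested.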

How the data were processed

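The deposited intensity of a probe set is a linear MAS5 signal computed by the authors, per the submitters' processing notes. The software's version and its scaling and detection settings are not stated in those notes. Per-array scaling hides any change in total RNA and leaves the brightest probe sets unaligned. Groups came from the sample titles. Log2(signal + 3.8) was used (3.8 is the 10th percentile), which understates changes of dim genes. A gene was its brightest probe set among the 20380 with 1 symbol in the platform annotation, and genes under the 40th percentile (38.1, pseudocount included) were left out, as were 64 control probe sets. All 7 arrays entered 1 limma 3.58.1 fit in R 4.3.3 (lmFit, eBayes with trend, genotype the only term, 4 residual and 6.06 prior degrees of freedom). P-values are two-sided, Benjamini-Hochberg adjusted over 8019 genes, with a threshold of 0.05, and measure the spread between pools. The fit was tested on simulated data. Its log2 differences are the source of every adjusted p unless a fit of every probe set is named. Members and lists were chosen with earlier results of these data known. Named genes were called members (up to 12 a direction), otherwise the 5 largest differences, the 5 brightest and 5 dimmest, members of known roles, paralogs ending in l, members whose probe sets oppose, and up to 3 genes a list. Rps4x, Rps15a and Rpl22l1 were named after their values were seen. Alternatives were the pseudocount, filter, scaling, variance trend, weights, arrays in the fit, replicate block, probe set, threshold and membership. Promoter sequences are from RefSeq.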

Additional observations from a re-analysis of the deposited data

Results flagged for a closer look

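The 3′ control probe set of 18S rRNA, outside the gene comparisons, read 1100 on heterozygous replicate 1, against 57.2 to 137 on the other 6 arrays. The 5′ and middle 18S probe sets read 318 and 132 there, against 19.1 to 166 and 19.8 to 86.8. The array is the one on which 27 of the 34 bright ribosomal protein genes were lowest. How many other bright genes were lowest there was not counted. Whether the reading bears on the ribosomal protein genes was not tested.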

How the results depend on the processing

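Among 1496 recomputed values of single members, 1297 kept their direction and their side of the threshold, 55 changed sign where neither value was called, 127 lost a call, 13 gained one and 4 reversed. The cause of each change was not tested unless the alternative's own construction shows it. The reversals were all in knockout against heterozygous embryos: Rplp2 and Rps29 (-0.01 each) after quantile normalization, Rpl37a (-0.28) with the mean of all probe sets, and Rpl12 (0.38) with probe sets shared with pseudogenes, which is another probe set. Against wild type the count of called members, 1, became 2 with only 2 genotypes fitted, with the mean of all probe sets and with shared probe sets, and 0 to 2 with 1 array left out. Its median ran from 0.09 to 0.17 with 1 array left out and was 0.01 after quantile normalization, which by construction gives every array the same brightest values. For heterozygous against wild-type embryos the count was 0 throughout, and the median was -0.21 to -0.10 with 1 array left out, 0.01 after quantile normalization and -0.05 after cyclic loess. Against heterozygotes the count of 11 became 1 with no filter, quantile normalization, cyclic loess or no trend, 3 with only 2 genotypes fitted, 7 with the mean of all probe sets, 21 at an adjusted p under 0.10, 0 at 1.5-fold or more, 28 with shared probe sets and 0 to 13 with 1 array left out. Its median was -0.01 after quantile normalization, 0.12 after cyclic loess and 0.23 to 0.36 with 1 array left out. Apart from Rps4l, the called members lost their call in 8 (Rpl4) to 15 (Rps28) of 25 alternatives.

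Same-numbered arrays did not deviate together (r of -0.30 to 0), and the labels do not say that numbers pair pools. With the replicate number as a block, 1 member was called against heterozygotes, Rpl22 (-1.41, adjusted p = 0.00781), none of the 11 kept its call, and 1 was called against wild type, again Rpl22 (-1.23, adjusted p = 0.0128) and not Rps4l (adjusted p = 0.0564). The small number of arrays limits every count, and dim probe sets such as that of Rps27 carry intervals several times wider than those of bright ones.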
